A study of Mus musculus with 16 samples.

Results

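AP-1 and other immediate early genes were followed in myeloid-derived suppressor cells (MDSCs) of tumor-bearing mice. The 10 genes were taken by symbol from the 24421 symbols of the count files, and all 10 were present and passed the filter on low counts in each comparison. They encode the FOS proteins Fos, Fosb and Fosl2, the JUN proteins Jun, Junb and Jund, the transcription factors Egr1 and Atf3, and the small regulators Ier2 and Btg2. The rule uses the names alone, but the genes were picked with earlier results of these data known.

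The study asked what the NLRP3 inflammasome does in MDSCs of a tumor-bearing host. Spleens of 4 WT and 4 Nlrp3-/- mice on the C57BL/6 background, all 8 carrying implanted B16.F10 melanoma, gave sorted monocytic (M-MDSC, Ly6C+Ly6G-) and granulocytic (G-MDSC, Ly6C-Ly6G+) cells, and both subsets of each mouse were sequenced as 16 libraries. Libraries are named by the replicate number of the labels, 1 to 4 in each group, and the same number within a genotype is the same mouse in both subsets. The Nlrp3-/- mice lack the gene in all tissues, since an EGFP cassette was inserted into it in the germ line. No tumor-free mice were among these libraries, and the labels give neither age nor sex.

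AP-1 is a dimer of a FOS and a JUN protein, or of JUN proteins alone, and it binds DNA through basic leucine zipper (bZIP) domains. Immediate early genes are transcribed within minutes of a stimulus, without new protein synthesis, downstream of MAP kinases, serum response factor and CREB, and their mRNAs decay fast. In monocytes and neutrophils they mark activation and differentiation, and they also rise when tissue is dissociated into single cells.

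On mm10, Fos is at chr12:85473890-85477273 on the plus strand, Fosb at chr7:19302696-19310051 on the minus strand, Fosl2 at chr5:32135801-32157842 on the plus strand and Jun at chr4:95049034-95052222 on the minus strand. Junb at chr8:84974484-84978718 and Ier2 at chr8:84661331-84662852 are on the minus strand, and Jund at chr8:70698949-70700616 is on the plus strand of the same chromosome. Atf3 at chr1:191170296-191218039 and Btg2 at chr1:134075170-134079120 are both on the minus strand. No other annotated gene overlaps any of the 10 genes on the same strand, and reads were counted by strand.

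RefSeq gives promoter windows, 250 bases before to 50 after the transcript start on GRCm38.p6, for 8 of the 10 genes, all but Egr1 and Ier2. The cAMP response element, which CREB binds, reads TGACGTCA, and its core TGACG was searched on both strands, so that the full element also holds the core. The core was in the windows of 5 of the 8 genes (Fos, Fosb, Junb, Atf3 and Btg2) and in 20.8% of the 32851 promoter windows of all genes. The full element was in that of Btg2 and in 1.79% of all windows. The piece of 30 bases around the site nearest to the start is shown for each of the 5 genes, because they set genes that were called higher in the G-MDSCs of WT mice (Btg2, Fos and Junb) beside genes that were not (Fosb and Atf3). Each is written 5′ to 3′ on the strand of the gene, with the site in capitals.
Btg2, chr1:134079303-134079332: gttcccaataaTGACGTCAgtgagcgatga
Fos, chr12:85473812-85473841: agttccgcccagTGACGtaggaagtccatc
Junb, chr8:84978837-84978866: gcttcctgacagTGACGcgagccgcctcct
Fosb, chr7:19310088-19310117: tggagttgcgggTGACGcaagcgcgggggc
Atf3, chr1:191183334-191183363: cctggaagctattaatagcattaCGTCAgc
The site began 166 bases before the start of Btg2, 66 before that of Fos, where a further site began at 129, 106 before that of Junb, 60 before that of Fosb and 7 before that of Atf3. The TATA box motif TATAAA, searched on both strands, was in the windows of Fos and Junb and in 13.6% of all windows. It began 33 bases before the start of Fos and at the start itself in Junb. The AP-1 site TGACTCA, with its reverse complement, and the CArG box of serum response factor were in no window of the 8 genes, against 5.2% and 1.63% of all windows. Sites outside the windows were not searched, so the absence covers these windows alone. The window of Jund, chr8:70697489-70697788, also ends before the start of its gene model given above. Those of Atf3, chr1:191183284-191183583, and Fosl2, chr5:32136222-32136521, lie inside their gene models and do not reach the 5′ ends given above. Distances are thus from the start of the RefSeq transcript. A match of letters is a description and does not show that a factor bound there.

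Libraries held 2295967 to 6079866 counts on genes, and 3 counts, the smallest amount counted as present, equalled 0.493 to 1.31 CPM. The 10 genes together took 0.242% to 0.452% of the counts of an M-MDSC library, 0.354% to 0.789% of a WT G-MDSC library and 0.69% to 0.94% of an Nlrp3-/- G-MDSC library. Nlrp3 checked the labels: it measured 40.7 to 88.9 CPM in WT and 0.514 to 1.88 CPM in Nlrp3-/- M-MDSCs, and 252 to 331 CPM in WT and 5.51 to 13.6 CPM in Nlrp3-/- G-MDSCs. The monocyte receptor Ccr2 measured 794 to 1563 CPM in M-MDSCs and 3.39 to 12.4 CPM in G-MDSCs, and the neutrophil receptor Cxcr2 0.209 to 3.52 CPM and 853 to 3194 CPM, so both subsets carried the markers of their labels. CPM here are counts relative to library size, scaled by the TMM factors of all 16 libraries. The QuantSeq kit gives about 1 read per transcript at its 3′ end, and each value compares 1 gene between libraries and not the genes with each other. These are bulk values, in which fewer cells that express a gene and less RNA per cell cannot be told apart.

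Among the FOS genes, Fos and Fosl2 were higher in G-MDSCs. Fosb had no fixed direction in WT mice and was higher in the G-MDSCs of 2 of the 4. Fos, the founding partner of JUN in AP-1, measured 527, 515.5, 324 and 867 CPM in the M-MDSCs of WT replicates 1 to 4 and 1489, 930.0, 1139 and 1958 CPM in their G-MDSCs. In Nlrp3-/- replicates 1 to 4 it measured 469, 201.5, 216 and 201 CPM in M-MDSCs and 1375, 989.7, 731.6 and 549.7 CPM in G-MDSCs. Each mouse had more Fos in its G-MDSCs than in its M-MDSCs, while WT and Nlrp3-/- libraries overlapped in both subsets. Fosb, a close relative of Fos, measured 67.3, 186, 92.9 and 175 CPM in WT M-MDSCs and 71.4, 49.1, 131 and 147.5 CPM in WT G-MDSCs. In Nlrp3-/- mice it measured 81.2, 61.8, 38.4 and 53.8 CPM in M-MDSCs and 167, 127, 117.5 and 75.0 CPM in G-MDSCs. Neighbouring groups in the order of Fosb means overlapped throughout, with the Nlrp3-/- M-MDSCs lowest. Fosl2, which encodes the FOS-related protein FRA2, measured 216, 303, 308 and 248 CPM in WT M-MDSCs, 332, 388, 397 and 444 CPM in Nlrp3-/- M-MDSCs, 812, 461, 803 and 837 CPM in WT G-MDSCs and 1006, 1089, 999.9 and 1392 CPM in Nlrp3-/- G-MDSCs. Its 4 groups were in that order and none overlapped its neighbour.

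Among the JUN genes, Junb and Jund were higher in G-MDSCs and Jun was not. Jun, the partner of FOS that activates transcription most strongly in the family, measured 322, 437, 188 and 525 CPM in WT M-MDSCs and 227, 201, 176 and 237 CPM in Nlrp3-/- M-MDSCs. The G-MDSCs held 403, 175, 137 and 267 CPM in WT and 294, 206, 239 and 184 CPM in Nlrp3-/- mice. All 4 groups of Jun overlapped their neighbours. Junb, which can restrain Jun and is required to limit myeloid growth, measured 429, 595, 619.6 and 657 CPM in WT M-MDSCs and 639, 606.5, 374.5 and 754.5 CPM in Nlrp3-/- M-MDSCs. In G-MDSCs it measured 1752, 1236, 2215 and 2839 CPM in WT and 3635, 4176, 2892 and 3257 CPM in Nlrp3-/- mice. The M-MDSC groups overlapped each other, and the WT G-MDSCs lay between them and the Nlrp3-/- G-MDSCs without overlap. Jund, the JUN gene that is expressed at rest, measured 193, 128.5, 92.9 and 129 CPM in WT M-MDSCs and 49.7, 65.2, 72.1 and 55.9 CPM in Nlrp3-/- M-MDSCs. G-MDSC libraries measured 400.0, 618, 639 and 299.7 CPM in WT and 291, 360.2, 241 and 324 CPM in Nlrp3-/- mice. Jund was thus lowest in Nlrp3-/- M-MDSCs, with no overlap between the M-MDSC groups and an overlap between the G-MDSC groups.

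Egr1, a zinc finger factor that serum response factor induces, lies at chr18:34859823-34864984 on the plus strand and had the widest range, with 54.1 times as much in the highest library as in the lowest. It measured 46.3, 314, 105 and 127.5 CPM in WT M-MDSCs and 129, 154, 102 and 127 CPM in Nlrp3-/- M-MDSCs. In G-MDSCs it measured 1052, 359.8, 1312 and 1687 CPM in WT and 2270.0, 2284, 1456 and 2504 CPM in Nlrp3-/- mice. WT replicate 2 had both the highest Egr1 of the M-MDSCs and the lowest of the G-MDSCs, and with TMM scaling the subsets did not overlap even so. Atf3, a bZIP factor of the stress response that restrains inflammatory genes, measured 378, 371, 278 and 539 CPM in WT M-MDSCs and 254, 246, 198 and 273 CPM in Nlrp3-/- M-MDSCs. The G-MDSC levels were 278, 138, 205 and 367 CPM in WT and 207.5, 196.5, 201 and 239.7 CPM in Nlrp3-/- mice. WT and Nlrp3-/- M-MDSCs did not overlap for Atf3, and the other neighbours in its order did.

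The small regulators Ier2 and Btg2 shared 1 pattern, with G-MDSCs above M-MDSCs and Nlrp3-/- above WT among the G-MDSCs. Ier2, a nuclear regulator of immediate early transcription, measured 77.9, 175, 122 and 95.6 CPM in WT M-MDSCs and 158, 134, 93.8 and 123 CPM in Nlrp3-/- M-MDSCs. In G-MDSCs it measured 344.5, 328, 456 and 499 CPM in WT and 956, 868, 662 and 756 CPM in Nlrp3-/- mice. Btg2, an antiproliferative gene that recruits the deadenylase that shortens mRNA tails, measured 133, 206, 171 and 195 CPM in WT M-MDSCs and 196, 167, 170.0 and 160.3 CPM in Nlrp3-/- M-MDSCs. The G-MDSC libraries held 934, 608, 923 and 1078 CPM in WT and 1497, 1585, 1157 and 1644 CPM in Nlrp3-/- mice. For both genes the M-MDSC groups overlapped, and the Nlrp3-/- G-MDSCs lay above all WT G-MDSCs, which lay above all M-MDSCs.

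**Figure D1:**
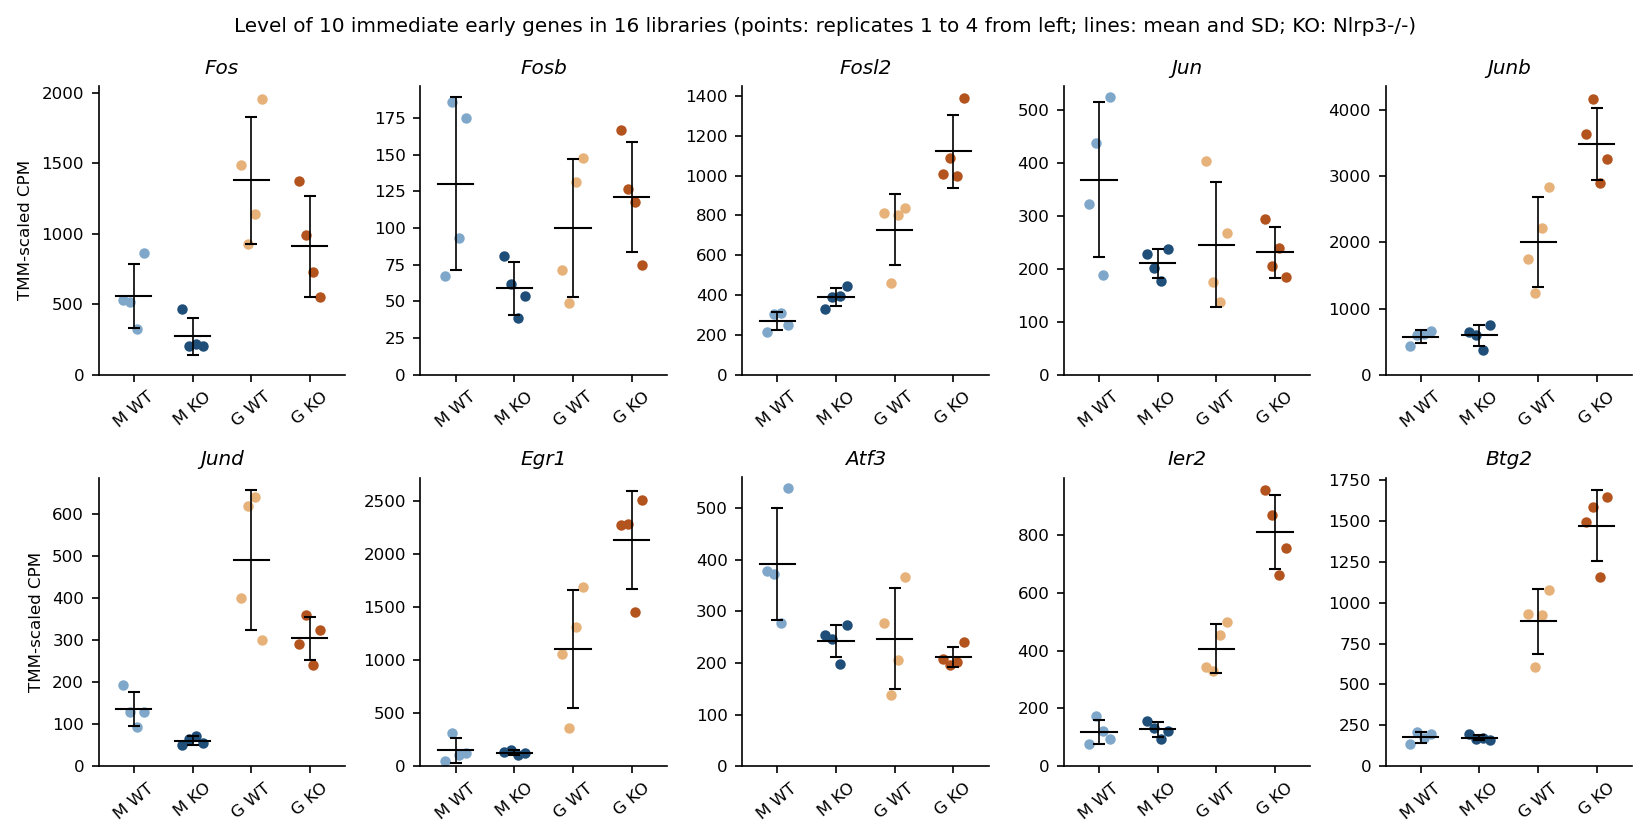
TMM-scaled CPM of the 10 genes (vertical axes, linear from 0) in each library of the 4 groups, with points for replicates 1 to 4 from left to right and lines for the mean and SD (n = 4). Egr1, Ier2 and Btg2 have their highest means in the Nlrp3-/- G-MDSCs, whose lowest libraries held 1456, 662 and 1157 CPM.

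G-MDSCs were compared with M-MDSCs within each genotype by edgeR's quasi-likelihood test, without the mouse as a block. Most of these genes were higher in G-MDSCs, by the largest factors for Egr1 and Btg2 in both genotypes. In WT mice 7 of the 10 genes were called higher (adjusted p under 0.05, by the Benjamini-Hochberg method over all genes tested, and fold change above 1.5), and none was called lower. The background was large: of 9739 genes tested, 26.3% were called higher and 27.1% lower. In Nlrp3-/- mice 8 of the 10 were called higher and none lower, where 23.7% and 27.4% of 10071 genes were. Of the genes with a lower level in G-MDSCs, 1 in WT mice (Atf3) and 0 in Nlrp3-/- mice had an unadjusted p under 0.05, and DESeq2 called 0 lower in both. By TMM-scaled CPM, in each genotype 7 genes had G-MDSC libraries all above the M-MDSC libraries, and 0 had them all below. Of all genes tested, 25.5% lay all above and 26.4% all below in WT mice, and 26.2% and 24% in Nlrp3-/- mice. The median log2 fold change of the 10 genes was 1.61 in WT and 1.92 in Nlrp3-/- mice, beside -0.05 and -0.12 for all genes tested.

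The change of Egr1 was 2.89 ± 0.56 on the log2 scale (SE) in WT mice, an adjusted p of 0.000876. In Nlrp3-/- mice it was 3.94 ± 0.21 (adjusted p = 3.57e-09). By TMM-scaled CPM, Egr1 was higher in the G-MDSCs of 8 of 8 mice. The difference was only 0.20 in WT replicate 2, against 3.64 to 4.50 in the other WT mice. Without the M-MDSC library of that mouse the change in WT mice was 3.52. Btg2 rose by 2.33 ± 0.22 in WT (adjusted p = 2.83e-06) and 2.97 ± 0.17 in Nlrp3-/- mice (adjusted p = 5.81e-09). Ier2 rose by 1.79 ± 0.25 in WT (adjusted p = 7.92e-05) and 2.55 ± 0.20 in Nlrp3-/- mice (adjusted p = 1.23e-07). All 8 mice had more of both in their G-MDSCs.

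Junb was 3.50 times higher in the G-MDSCs of WT mice, a log2 change of 1.81 ± 0.26 (adjusted p = 8.62e-05), and 5.41 times higher in those of Nlrp3-/- mice, 2.44 ± 0.22 (adjusted p = 5.49e-07). Jund was 3.61 and 4.65 times higher, log2 changes of 1.85 ± 0.28 (adjusted p = 0.00013) and 2.22 ± 0.18 (adjusted p = 1.45e-07). Fos was 2.48 times higher in WT, a log2 change of 1.31 ± 0.30 (adjusted p = 0.00297), and 3.09 times higher in Nlrp3-/- mice, 1.63 ± 0.33 (adjusted p = 0.000799). Fosl2 was 2.71 and 2.65 times higher, log2 changes of 1.44 ± 0.21 (adjusted p = 0.000128) and 1.41 ± 0.16 (adjusted p = 5.25e-06). For these 4 genes, too, the direction was the same in all 8 mice by TMM-scaled CPM.

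Fosb, Jun and Atf3 did not share this direction in WT mice. Their log2 changes from M-MDSC to G-MDSC there were -0.38 ± 0.38 (adjusted p = 0.404), -0.58 ± 0.35 (adjusted p = 0.179) and -0.66 ± 0.28 (adjusted p = 0.0634) by edgeR. In Nlrp3-/- mice Fosb was called higher at 0.93 ± 0.26 (adjusted p = 0.00863), although the lowest G-MDSC library, at 75.0 CPM, lay below the highest M-MDSC library, at 81.2 CPM. Jun and Atf3 changed by 0.02 ± 0.18 (adjusted p = 0.946) and -0.32 ± 0.16 (adjusted p = 0.101) there. Fosb was higher in the G-MDSCs of 6 of 8 mice, Jun of 4 and Atf3 of 1.

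Both subsets came from the same mice, and with the mouse as a block Jun and Atf3 were called lower in the G-MDSCs of WT mice, at -0.61 (adjusted p = 0.0321) and -0.71 (adjusted p = 0.0037). The scaling mattered here, because library size in place of TMM moved the median log2 change of all genes from -0.05 to -0.79 in WT and from -0.12 to -0.83 in Nlrp3-/- mice, and the changes are relative to these medians. Under library size, Fos in WT mice (0.57, adjusted p = 0.114) and Fosb in Nlrp3-/- mice (0.21, adjusted p = 0.524) were no longer called. Fosb, Jun and Atf3 were then called lower in WT mice, and Jun, at -0.70, and Atf3 in Nlrp3-/- mice. Without WT replicate 3 in M-MDSCs both Jun (-0.86, adjusted p = 0.0437) and Atf3 (-0.85, adjusted p = 0.0307) were called lower, as was Jun without WT replicate 1 (-0.92, adjusted p = 0.0362) and Atf3 without WT replicate 4 (-0.90, adjusted p = 0.0186) in G-MDSCs. Beside these results, the summed level of 4 B cell genes was 68.3 to 134 CPM in M-MDSCs and 171 to 288.5 CPM in G-MDSCs, and that of 4 T cell genes at most 130 CPM and at least 106 CPM, with none of the 8 genes at 0 in all libraries. Of the B cell genes 4 of 4 were called higher in WT and 3 of 4 in Nlrp3-/- G-MDSCs, and of the T cell genes 1 and 2 of 4. Genes of red pulp macrophages differed in the same way, at 38.7 to 56.4 CPM in M-MDSCs and 74.2 to 182 CPM in G-MDSCs of WT mice and 108 to 227 CPM and 308.5 to 456 CPM in those of Nlrp3-/- mice, summed over 5 genes of which 4 were called higher in each genotype. The part of these markers in the results was not tested.

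**Figure D2:**
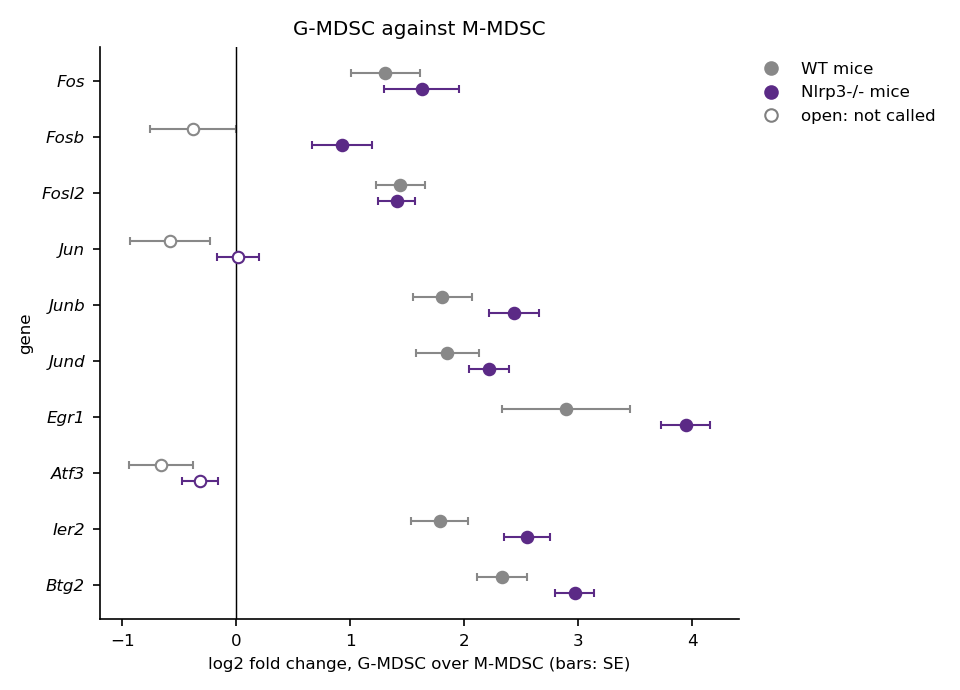
Log2 fold change (horizontal axis) of each gene (vertical axis) from M-MDSCs to G-MDSCs, with bars for the standard error, in WT mice (grey) and Nlrp3-/- mice (purple), and open circles for genes that were not called. Egr1 lies farthest to the right at 2.89 and 3.94, and Fosb, Jun and Atf3 lie near or left of 0 in WT mice. Scaled by library size, Jun in Nlrp3-/- mice lies at -0.70.

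In M-MDSCs Jund was lower in Nlrp3-/- than in WT mice. The paper reports reduced tumor growth in Nlrp3-/- mice, so loss of the gene and tumor size cannot be told apart here. Jund fell from 136 ± 41.5 to 60.7 ± 9.9 CPM (SD, 4 libraries each), to 0.453 times the WT level. The log2 change of Jund was -1.14 ± 0.21 (adjusted p = 0.00775), and all 4 Nlrp3-/- libraries lay below all 4 WT libraries. Fosb was also called lower, at -1.11 ± 0.33, with an adjusted p of 0.0499 and overlapping groups. In all, 0 of the 10 genes were called higher and 2 lower, beside 3.51% and 7.1% of the 9986 genes tested. The median log2 change of the 10 genes was -0.42, and that of all genes 0.07. Without overlap between the genotypes, Fosl2 was higher, and Jund and Atf3 were lower, where 7.59% of all genes were higher and 11.7% lower in this way.

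The remaining genes of the M-MDSC comparison did not pass both thresholds. Fosl2 had an adjusted p of 0.0466 at a log2 change of 0.56 ± 0.16, a fold change of 1.47, and was the 1 gene with a higher level and an unadjusted p under 0.05 (DESeq2 called 0 higher). Atf3 measured -0.66 ± 0.20 (adjusted p = 0.057), Jun -0.78 ± 0.27 (adjusted p = 0.0779) and Fos -0.99 ± 0.34 (adjusted p = 0.0793). Egr1, Junb, Ier2 and Btg2 measured -0.19 ± 0.43, 0.08 ± 0.22, 0.14 ± 0.25 and 0.00 ± 0.17, all with adjusted p of 0.752 or more. DESeq2 called Fos, Fosb, Jun, Jund and Atf3 lower, 5 in all, and with offsets for GC content and transcript length Atf3 was called lower at -0.86 (adjusted p = 0.0302).

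Single libraries decided some of these calls. Fosb was not called in 6 of the 8 fits that each left out a library, those without replicate 2, 3 or 4 of either genotype, where its adjusted p was 0.0578 to 0.15. Without Nlrp3-/- replicate 1, whose Fos was 469 CPM against 201 to 216 CPM in the other Nlrp3-/- libraries, Fos was called lower at -1.45 (adjusted p = 0.00562), Fosl2 was called higher at 0.59 (adjusted p = 0.0344) and Atf3 lower at -0.73 (adjusted p = 0.0397). Without WT replicate 3, Jun was called lower at -0.99 (adjusted p = 0.0195) and Atf3 at -0.79 (adjusted p = 0.0414). Jund was called in all 8 fits.

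In G-MDSCs Ier2, Junb and Btg2 were called higher and Jund lower in Nlrp3-/- than in WT mice. Ier2 rose from 407 ± 83.7 to 811 ± 128 CPM (SD, 4 libraries each), a log2 change of 0.91 ± 0.18 (adjusted p = 0.0039). Junb rose from 2011 ± 682 to 3490.0 ± 549 CPM, 0.71 ± 0.23 on the log2 scale (adjusted p = 0.045). Btg2 rose from 886 ± 198 to 1471 ± 217.5 CPM, 0.65 ± 0.19 (adjusted p = 0.0291). In all 3 genes every Nlrp3-/- library lay above every WT library. Jund fell from 489 ± 166 to 304 ± 50.8 CPM, -0.77 ± 0.23 on the log2 scale (adjusted p = 0.0323), with groups that overlapped.

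These were 3 higher and 1 lower of the 10 genes, beside 4.7% and 11.7% of the 9273 genes tested. The median log2 change of the 10 genes was 0.37, and that of all genes 0.03. With Fosl2, 4 genes lay without overlap above WT and 0 below, where 12% and 12.3% of all genes did. Egr1 measured 0.87 ± 0.34 (adjusted p = 0.0913), Fosl2 0.54 ± 0.20 (adjusted p = 0.0703) and Fos -0.68 ± 0.28 (adjusted p = 0.104). Fosb, Jun and Atf3 measured 0.20 ± 0.31, -0.17 ± 0.27 and -0.31 ± 0.23, with adjusted p of 0.388 to 0.71.

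The higher calls varied with the processing. DESeq2 kept all 3 and also called Egr1 higher (0.89, adjusted p = 0.0351). With no filter, edgeR called Egr1 higher (0.87, adjusted p = 0.0107) and Fos lower (-0.67, adjusted p = 0.0299). Fosl2 was called higher with library size (0.65, adjusted p = 0.0372) and in the model of 16 libraries (0.62, adjusted p = 0.0276). With the replicate block Junb and Btg2 were lost and Ier2 was kept. With offsets for GC content and transcript length, Ier2 measured 0.40 (adjusted p = 0.201), Junb 0.21 (adjusted p = 0.633) and Btg2 0.55 (adjusted p = 0.0684), while Jund measured -1.26 (adjusted p = 0.00377) and Fos was called lower at -0.93 (adjusted p = 0.0454). The transcripts of the 10 genes hold 49.7% (Btg2) to 67.1% (Jund) GC. Junb was not called in 6 of the 8 fits that each left out a library, Jund in 5 and Btg2 in 4, while Ier2 was called in all 8. Btg2 was lost without WT replicate 2 and without Nlrp3-/- replicate 1, 2 or 4, Jund without WT replicate 2 or 3 and Nlrp3-/- replicate 1, 3 or 4, and Junb without WT replicate 1 or 2 and each Nlrp3-/- replicate. Without Nlrp3-/- replicate 1 Fos was called lower (-0.94, adjusted p = 0.0313), and without WT replicate 4 Egr1 was called higher (1.15, adjusted p = 0.0426).

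**Figure D3:**
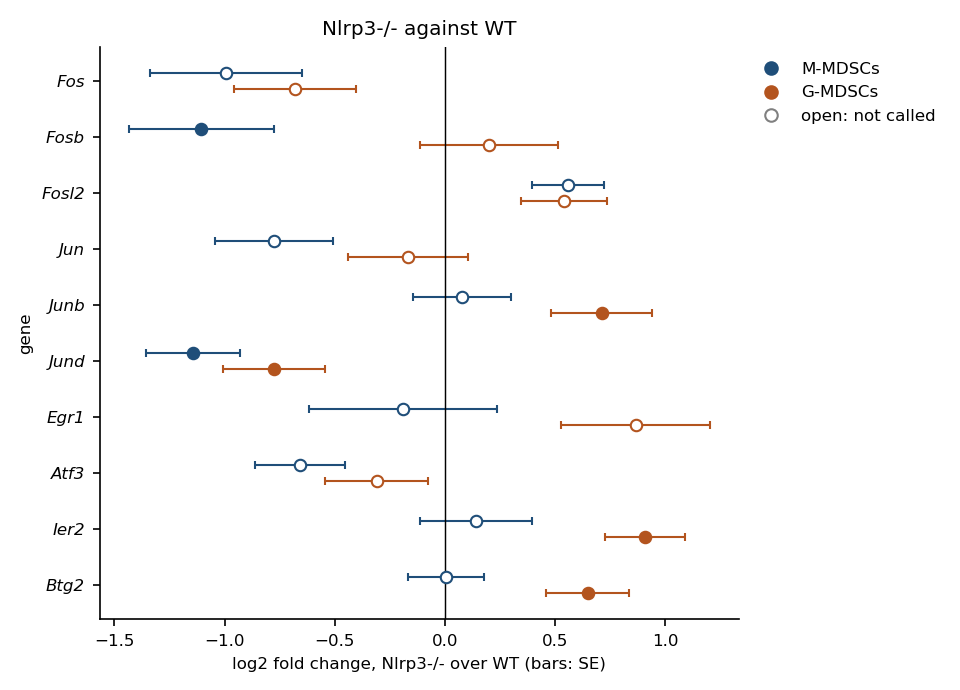
Log2 fold change (horizontal axis) of each gene (vertical axis) from WT to Nlrp3-/-, with bars for the standard error, in M-MDSCs (blue) and G-MDSCs (orange), and open circles for genes that were not called. Jund lies left of 0 in both subsets, at -1.14 and -0.77, and Ier2, Junb and Btg2 lie right of 0 in G-MDSCs. With GC content and length offsets Junb and Ier2 in M-MDSCs lie at -0.33 and -0.27 and Fosb in G-MDSCs at -0.03, across 0.

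The genotype effects of the subsets were compared in a model of all 16 libraries, as the effect in G-MDSCs minus that in M-MDSCs. Of the 10 genes 0 passed, and in all 0.0187% of 10696 genes were called with a higher and 0.00935% with a lower effect in G-MDSCs. All 10 differences were above 0, with a median of 0.73 beside 0.05 for all genes, although Fosl2 (0.09) was at -0.01 under library size. At an unadjusted p under 0.05 were Fosb (1.43 ± 0.49), Btg2 (0.76 ± 0.26), Ier2 (0.89 ± 0.32) and Junb (0.75 ± 0.34) in edgeR's fit, all on the log2 scale. Their adjusted p were 0.97 to 0.992, and with the mouse as a block they were 0.282 to 0.397. DESeq2 called 0. Thus neither the lower Fosb in M-MDSCs nor the higher Junb, Ier2 and Btg2 in G-MDSCs was shown to be particular to that subset.

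The same contrast can be read within each mouse. The log2 ratio of G-MDSC to M-MDSC for Ier2 was 0.90 to 2.38 in the 4 WT mice and 2.59 to 2.81 in the 4 Nlrp3-/- mice, which did not overlap. For Atf3 it was -1.42 to -0.44 and -0.32 to 0.02, again without overlap. For Btg2 it was 1.56 to 2.81 and 2.76 to 3.35, for Junb 1.05 to 2.11 and 2.11 to 2.95, and for Fosb -1.91 to 0.49 and 0.48 to 1.60, with ranges that met or overlapped by a small margin. For Egr1 the WT mice ran from 0.20 to 4.50 and the Nlrp3-/- mice from 3.83 to 4.30. The ranges also overlapped for Fos (0.85 to 1.81 and 1.45 to 2.29) and Fosl2 (0.61 to 1.91 and 1.33 to 1.65). They did so too for Jun (-1.32 to 0.325 and -0.36 to 0.44) and Jund (1.05 to 2.78 and 1.735 to 2.54). The share of all genes whose ratios separate the genotypes in this way was not computed, so no conclusion is drawn from Ier2 and Atf3 here.

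Among the other AP-1 family bZIP genes, 17 of 18 were tested between the genotypes, and in G-MDSCs 0 were called higher and 1 lower. Of all genes tested there, 4.7% were called higher and 11.7% lower. Mafg, a small MAF protein, fell from 185 ± 49.5 to 83.1 ± 6.28 CPM in G-MDSCs (SD, 4 libraries each), -1.24 ± 0.19 on the log2 scale (adjusted p = 0.000549). The median change of this list was -0.21 in M-MDSCs and 0.10 in G-MDSCs. Between the subsets 8 of 17 were called higher and 5 lower in G-MDSCs of WT mice, and 7 and 5 of 18 in those of Nlrp3-/- mice. Beside them, 26.3% of all genes were called higher and 27.1% lower in WT mice, and 23.7% and 27.4% in Nlrp3-/- mice. The lower calls of the list were thus near the background. Batf, Fosl1, Jdp2, Maff, Mafk, Atf1 and Atf2 were called higher in both genotypes, and Atf6, Atf7 and Batf3 were among those called lower.

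Of 48 other immediate early and primary response genes, 8 were called higher and 3 lower in Nlrp3-/- G-MDSCs (45 tested), and 1 higher and 3 lower in Nlrp3-/- M-MDSCs (46 tested). The shares of all genes tested were 4.7% higher and 11.7% lower in G-MDSCs, and 3.51% and 7.1% in M-MDSCs. The medians of this list were 0.05 and -0.19. In G-MDSCs Egr2, a relative of Egr1, measured 5.08 to 31.9 CPM in WT and 66.1 to 146 CPM in Nlrp3-/- mice, a log2 change of 1.99 ± 0.40 (adjusted p = 0.00409). Dusp2, a phosphatase of MAP kinases, rose by 1.18 ± 0.27 (adjusted p = 0.00867) and Nfkbid, an inhibitor of NF-κB, by 0.95 ± 0.19 (adjusted p = 0.00439). Egr3, Dusp1, Csrnp1, Ccl3 and Ccl4 were the other genes called higher there. Every Nlrp3-/- G-MDSC library lay above every WT library for Egr2, Dusp2 and Nfkbid. These were named for their small p, which favors such a gap, and 12% of all genes tested lay above WT in this way.

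Some genes of that list fell in the same libraries. Btg1, a paralog of Btg2, fell in both subsets, at -1.57 ± 0.25 in G-MDSCs (adjusted p = 0.000736) and -1.32 ± 0.19 in M-MDSCs (adjusted p = 0.00298), whereas Btg2 rose in G-MDSCs and measured 0.00 in M-MDSCs. Klf6, a zinc finger factor of myeloid cells, also fell in both, at -0.92 ± 0.21 (adjusted p = 0.00793) and -1.48 ± 0.23 (adjusted p = 0.00413). Sik1, a kinase induced by cAMP, measured -1.18 ± 0.19 in G-MDSCs (adjusted p = 0.000796). Klf4, a factor of monocyte differentiation, measured -0.85 ± 0.17 in M-MDSCs (adjusted p = 0.0105), where the clock gene Per1 rose by 0.63 ± 0.18 (adjusted p = 0.0467). Between the subsets this list moved mostly 1 way, with 28 of 46 called higher and 5 lower in G-MDSCs of WT mice, and 31 of 45 and 4 in those of Nlrp3-/- mice, at medians of 1.33 and 1.64. All genes tested gave 26.3% higher and 27.1% lower in WT mice, and 23.7% and 27.4% in Nlrp3-/- mice.

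Upstream of these genes, Srf, which encodes serum response factor, was higher in both subsets of Nlrp3-/- mice. Srf measured 80.8, 78.3, 106 and 84.3 CPM in WT and 118, 150.3, 180 and 172 CPM in Nlrp3-/- M-MDSCs, and 186, 70.7, 146 and 121 CPM in WT and 227, 252, 287 and 351 CPM in Nlrp3-/- G-MDSCs. The genotypes did not overlap in either subset, where 7.59% of all genes in M-MDSCs and 12% in G-MDSCs lay above WT in this way. The log2 changes of Srf were 0.84 ± 0.17 (adjusted p = 0.0101) and 1.01 ± 0.24 (adjusted p = 0.01). The kinase genes Braf and Map3k1, which act above ERK and JNK, fell in both subsets, Braf at -0.73 ± 0.19 (adjusted p = 0.0324) in M-MDSCs and -1.07 ± 0.16 (adjusted p = 0.000563) in G-MDSCs, and Map3k1 at -0.69 ± 0.20 (adjusted p = 0.0427) and -1.21 ± 0.28 (adjusted p = 0.0089). Elk4, a partner of serum response factor, measured -1.99 ± 0.59 in G-MDSCs (adjusted p = 0.0328) at levels of 0.462 to 11.5 CPM there, near the smallest amount counted as present. Of 32 such genes, 1 was called higher and 2 lower of 31 tested in M-MDSCs, and 1 and 4 of 30 in G-MDSCs, with medians of 0.05 and -0.20. These counts were near the shares of all genes tested, 3.51% higher and 7.1% lower in M-MDSCs and 4.7% and 11.7% in G-MDSCs.

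Of 14 heat shock genes, which like Atf3 respond to cellular stress, 5 were called lower and 0 higher in Nlrp3-/- M-MDSCs, beside 7.1% and 3.51% of all genes, and 3 had a log2 change above 0. Hspa1a, an inducible HSP70 gene, measured 136, 230.1, 32.7 and 305 CPM in WT and 8.03, 20.1, 8.98 and 20.2 CPM in Nlrp3-/- M-MDSCs. Its near-identical copy Hspa1b measured 57.2, 180.3, 23.2 and 243 CPM and 6.63, 17.1, 3.76 and 6.04 CPM, and how reads divide between the copies is uncertain. The genotypes did not overlap for either gene, where 11.7% of all genes lay below WT in this way. The log2 changes were -3.59 ± 0.57 for Hspa1a (adjusted p = 0.00427), -3.88 ± 0.68 for Hspa1b (adjusted p = 0.00621) and -1.27 ± 0.30 for Hsph1, a cofactor of HSP70 (adjusted p = 0.0209), and Bag3 and Hsp90aa1 were the others called. In G-MDSCs Hsph1 measured -1.96 ± 0.42 (adjusted p = 0.00546), the 1 gene of 14 called, beside 11.7% of all genes called lower and 4.7% higher. The list's medians were -0.29 and -0.38.

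**Figure D4:**
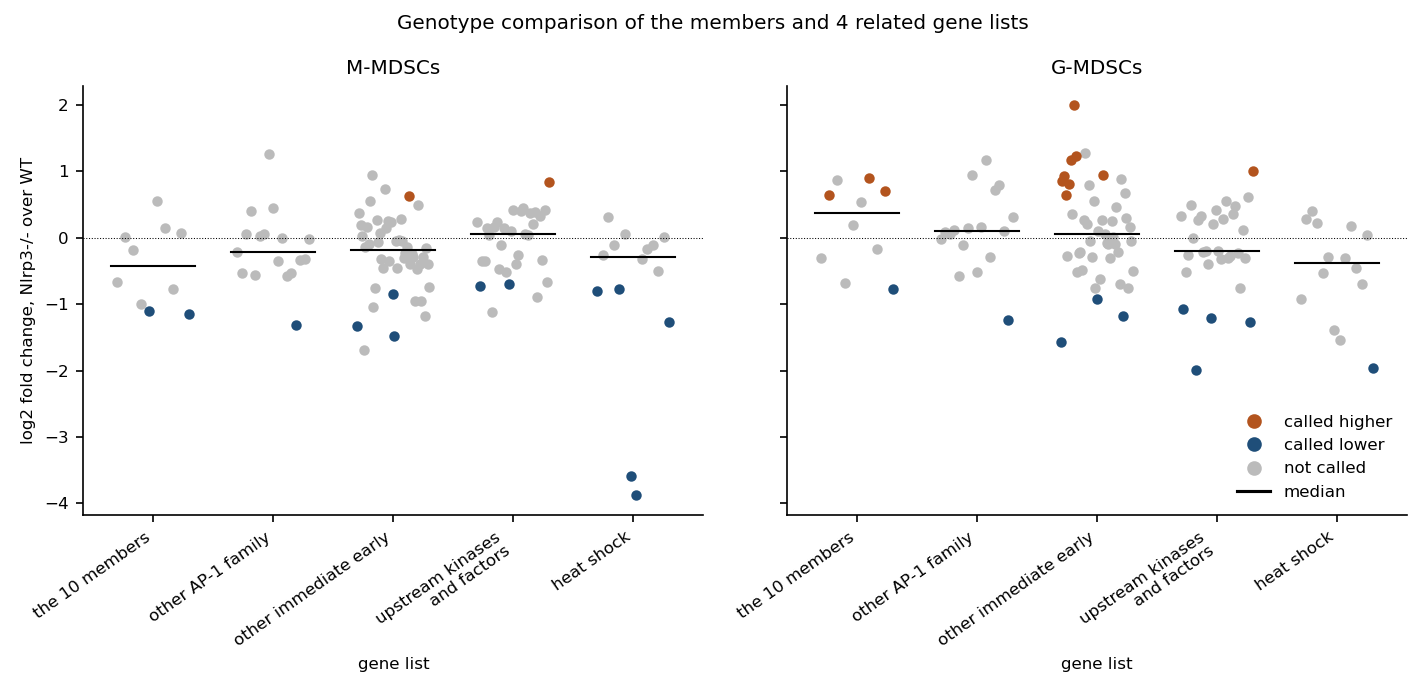
Log2 fold change from WT to Nlrp3-/- (vertical axis) of the 10 genes and of the tested genes of 4 related lists (horizontal axis), in M-MDSCs (left) and G-MDSCs (right), with a line at each list's median. Hspa1a and Hspa1b lie lowest in M-MDSCs at -3.59 and -3.88, and Egr2 lies highest in G-MDSCs at 1.99.

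The same macrophage genes also moved with genotype in both sorts. The summed level of C1qa, C1qb, C1qc, Vcam1 and Spic was 38.7 to 56.4 CPM in WT and 108 to 227 CPM in Nlrp3-/- M-MDSCs, and 74.2 to 182 CPM in WT and 308.5 to 456 CPM in Nlrp3-/- G-MDSCs. Of these 5 genes 4 were called higher in M-MDSCs and 5 in G-MDSCs, and none was at 0 in all libraries. Of 5 monocyte genes, 4 were tested and 1 was called higher in Nlrp3-/- G-MDSCs and 0 lower, namely Csf1r, at 340 to 692 CPM in WT and 700.0 to 909 CPM in Nlrp3-/- mice (0.64, adjusted p = 0.0388), while Ccr2 measured -0.51 (adjusted p = 0.445). Of 4 granulocyte genes tested in G-MDSCs, 1 was called lower and 0 higher. That was Cxcr2, at 1852 to 3194 CPM in WT and 853 to 1543 CPM in Nlrp3-/- mice (-1.26, adjusted p = 0.00152). Of 3 tested in M-MDSCs, Retnlg was called higher (2.44, adjusted p = 0.0151) and 0 lower. The B cell gene Ms4a1 was called lower in M-MDSCs (-0.99) and G-MDSCs (-1.58), and no other B cell gene was called. The part of these markers in the genotype results was not tested.

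Within groups, most of the 10 genes varied in the same direction from library to library. Each library's log2 CPM was taken as its distance from the mean of its group, over the 16 libraries, which share depth and scaling between genes of 1 library. Of the 45 pairs of the 10 genes, 35 had a correlation above 0, with a median Pearson r of 0.45. No such values were computed for pairs of all genes tested, and the 16 libraries came from 8 mice. Whether this is particular to the 10 genes is thus not known. The highest r were 0.88 for Egr1 and Btg2, 0.80 for Egr1 and Ier2 and 0.75 for Fosb and Ier2. The lowest was -0.51, for Junb and Jund. Each of the pairs with Jund had an r below 0.

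The genes outside the 10 whose pattern was most like that of Fos, of 10686 ranked by the same r, were Hoxb3 (0.87), Pmaip1 (0.82), Adam10 (0.81), Zfp36 (0.81) and Sp3 (0.81). Hoxb3 measured 0.341 to 8.17 CPM, near the smallest amount counted as present. Zfp36, itself an early response gene whose protein binds AU-rich mRNA, measured 220.0 to 364 CPM in WT and 163 to 311 CPM in Nlrp3-/- M-MDSCs, and 468 to 995.5 CPM and 298 to 1172 CPM in G-MDSCs. Zfp36 was picked for its likeness to Fos in these same libraries, and like Fos it was highest in Nlrp3-/- replicate 1 in both subsets.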

How the data were processed

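M-MDSCs and G-MDSCs of 8 mice were profiled by QuantSeq 3′ mRNA-seq. The authors mapped reads to mm10 with HISAT2 2.1.0 and deposited raw counts per gene symbol from HTSeq, which were used as they are. Members and gene lists were chosen with earlier results of these data known. The genes named are the 10 members, Nlrp3, up to 3 called genes with the smallest p per direction, list and genotype comparison, and the 5 genes most like Fos. Bag3, Hsp90aa1, the other genes called higher beside Egr2, the bZIP genes called between subsets and Csf1r were named after their values were seen. A result of the bZIP list is not reported here.

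Counts were tested in R 4.3.3 with edgeR 4.0.16 (filterByExpr, TMM within each comparison, quasi-likelihood) and called at an adjusted p under 0.05 and a fold change above 1.5. The SE is the log2 fold change over the square root of F. Levels are CPM scaled over 16 libraries, and log2 CPM used a prior count of 2. Alternatives were DESeq2 1.42.0, its size factors, library size, no filter, no fold minimum, a replicate block, GC content and length offsets from GENCODE transcripts, 1 model of all libraries, and leaving out each library. The fits were tested on simulated data. Replicates are separate mice. By the labels, 1 mouse gave both libraries that share a genotype and a number, and their deviations from the group means correlated at 0.008 to 0.397. Between genotypes within a subset, each library is a separate mouse, so the SE of the fit and the SD of a group include differences between mice. Between subsets and in the difference of genotype effects, the main fit took the 2 libraries of a mouse as independent. The SE and adjusted p of these comparisons thus leave out the pairing, except where the mouse is named as a block. The smallest amount counted as present is a fixed number of counts and takes no account of those differences. Depth was 2295967 to 6079866 counts.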

Additional observations from a re-analysis of the deposited data

Results flagged for a closer look

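Of 40 groups of 4 values (10 genes in 4 groups), 2 held a library whose gap to the others, over the range of the group, was above Dixon's 95% critical value, and chance alone flags about 1 in 20 groups. Fos measured 469 CPM in Nlrp3-/- M-MDSCs of replicate 1, against 201 to 216 CPM in the other 3, a gap of 0.943 of the range. Without that library Fos was called lower in Nlrp3-/- M-MDSCs, at -1.45 on the log2 scale (adjusted p = 0.00562). Fosl2 measured 461 CPM in WT G-MDSCs of replicate 2, against 803 to 837 CPM in the other 3, a gap of 0.91 of the range. Without that library the change of Fosl2 in Nlrp3-/- G-MDSCs was 0.38 (adjusted p = 0.144), against 0.54.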

How the results depend on the processing

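The 7 and 8 higher calls in G-MDSCs kept within 1.5 times of their number under all alternatives, and the difference of genotype effects stayed at 0 calls. The genes called lower in M-MDSCs (2) were 5 with DESeq2 and 1 with library size, with the replicate block and with the block and GC content and length offsets. Those called higher there (0) were 1 with library size and 1 with no fold minimum. In G-MDSCs those called higher (3) were 1 with the block and 0 with the offsets, alone or with the block, and those called lower (1) were 0 with library size and with the block and 2 with no filter and with the offsets. Those lower in G-MDSCs than in M-MDSCs (0) were, in WT mice, 3 with library size, 1 with no filter, 2 with the block, 1 with the block and offsets and 1 in the model of 16 libraries, and in Nlrp3-/- mice 2 with library size. Leaving out 1 library gave 0 to 1 higher and 1 to 4 lower in M-MDSCs, 1 to 4 and 0 to 1 in G-MDSCs, and 0 to 2 lower between subsets in WT mice. The cause was not tested.

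Signs changed for small values. In M-MDSCs Btg2 (0.00) was -0.0193 with DESeq2, -0.0195 with its size factors, -0.0245 in the model of 16 libraries, -0.0629 with the offsets, -0.052 with the block and offsets and -0.11 to 0.10 without 1 library. Junb (0.08) was -0.33 with the offsets, -0.37 with the block and offsets and -0.10 to 0.25 without 1 library. Ier2 (0.14) was -0.27, -0.24 and -0.03 to 0.41, and Egr1 (-0.19) was 0.11 with the block and -0.46 to 0.51. In G-MDSCs Fosb (0.20) was -0.0328 with the offsets and -0.0216 to 0.45 without 1 library, and Jun (-0.17) was -0.35 to 0.16. Between subsets of Nlrp3-/- mice Jun (0.02) was -0.70 with library size, -0.0187 with no filter, -0.0465 with the offsets, -0.0557 with the block and offsets and -0.094 to 0.14 without 1 library. Fosl2 in the difference of genotype effects (0.09) was -0.0109 with library size and -0.16 to 0.18.

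Between the subsets the block is the mouse, and it changed no call of the 10 genes other than those of Jun and Atf3 in WT mice. Library size moved the median log2 change of all genes from 0.07 to 0.17 in M-MDSCs and from 0.03 to 0.16 in G-MDSCs. Between genotypes the replicate number joins different mice, and the deviations of same-numbered samples correlated at -0.452 to 0.018 in M-MDSCs and -0.263 to -0.044 in G-MDSCs. With that block 67 genes were called higher and 358 lower in M-MDSCs, against 351 and 709, and 199 and 786 in G-MDSCs, against 436 and 1086. With the offsets the counts were 257 and 407, and 272 and 679. Each of the 10 genes had at least 145 counts in every library.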

Other observations

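Averaged over the 10 genes, the library farthest below the mean of its group was that of WT replicate 2 in G-MDSCs, at -0.56 on the log2 scale with 1 gene above its group mean. The library farthest above was that of WT replicate 4 in G-MDSCs, at 0.38 with 9 genes above. In M-MDSCs WT replicate 2 was at 0.34 with 7 genes above and WT replicate 1 at -0.33 with 2. The Nlrp3-/- libraries lay between -0.24 and 0.18.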
